A study of Arabidopsis thaliana with 5 samples.

Results

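Distal summits of TREE1 were the ChIP-seq peaks whose summit, the base of highest tag pileup, lay more than 1000 bp from every protein-coding gene. They were sought on chromosomes 1 to 5 of Arabidopsis thaliana, leaving out chromosome 2 from 3187773 to 3509877 and 2 Mb on either side of each centromere middle. This rule found 2972 distal summits among 26974 summits in the sequence so kept, out of 27716 peaks in all. The rule used the position of each summit and neither tag counts, fold enrichment nor presence in other libraries.

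TREE1 tagged with green fluorescent protein, and driven by the TREE1 promoter, was precipitated with an anti-GFP antibody from shoots of dark-grown seedlings of 1 line, aged 3 days. The treated seedlings had received 10 ppm ethylene for 4 h (2 ChIP libraries and 1 input) and the controls hydrocarbon-free air for the same time (1 ChIP library and 1 input). Every library came from the transgenic line, so no untagged plants served as a control for the antibody. Nothing in the labels tells if the ethylene libraries were separate cultures, so the spread between them may be technical.

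Ethylene is a gaseous hormone that shortens the stem of dark-grown seedlings, and its signal reaches genes through the transcription factor EIN3. TREE1 is a transcriptional repressor that works with EIN3. The Arabidopsis genome is compact, and most sites of DNA-binding proteins lie next to genes. A site far from any coding gene can act on a gene across a long intergenic stretch, can serve a noncoding RNA gene, or can have no target.

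Ethylene library 1 was the shallowest, with 5884897 tags kept after duplicate removal, against 9459860 in ethylene library 2 and 9325092 in air. Of the summits in the sequence kept, 899 of 8899 were distal in ethylene library 1, 1177 of 9700 in ethylene library 2 and 896 of 8375 in air. The distal share was 10.1% in ethylene library 1 (Wilson 95% interval 9.49 to 10.7%), 12.1% in ethylene library 2 (11.5 to 12.8%) and 10.7% in air (10.1 to 11.4%). The air value lay between those of the ethylene libraries. Because air had 1 library, differences between ethylene and air lack a replicate check and carry no p-value. Intervals here and below cover counting error only, and tags that arise from PCR are not independent molecules.

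Distal summits were sparser than summits just outside coding genes and denser than summits inside them, and they were not confined to the first bases past the limit. Sequence farther than 1000 bp from coding genes made up 14.9 Mb, or 15% of the 99.1 Mb kept. It held 60.4 summits per Mb in ethylene library 1 (exact Poisson 95% interval 56.5 to 64.5), 79.0 in ethylene library 2 (74.6 to 83.7) and 60.1 in air (56.3 to 64.2). All kept sequence held 89.8, 97.8 and 84.5 per Mb in the same order of libraries, and the 1000 bp next to coding genes held 212, 219.7 and 193. Inside coding genes, which made up 62.4% of the kept sequence, there were 52.8, 58.3 and 51.2 per Mb, below the distal intervals. Ethylene library 2 thus had the densest distal sequence, by a margin larger than the counting error of either other library.

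Density declined with distance. From the limit to 1500 bp it was 79.8 summits per Mb in ethylene library 1, 97.9 in ethylene library 2 and 73.9 in air. Beyond 5000 bp it was 11.7, 20.5 and 9.98 per Mb, from 20, 35 and 17 summits. The median distal summit lay 1675 bp from the nearest coding gene in ethylene library 1, 1767 bp in ethylene library 2 and 1744 bp in air. Just inside the limit, up to 1100 bp, there were 86, 122 and 84 summits with median folds of 4.02, 3.49 and 3.16. Just outside it, in the last 100 bp before the limit, there were 103, 140 and 91 summits with median folds of 3.89, 3.45 and 3.11.

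**Figure D1:**
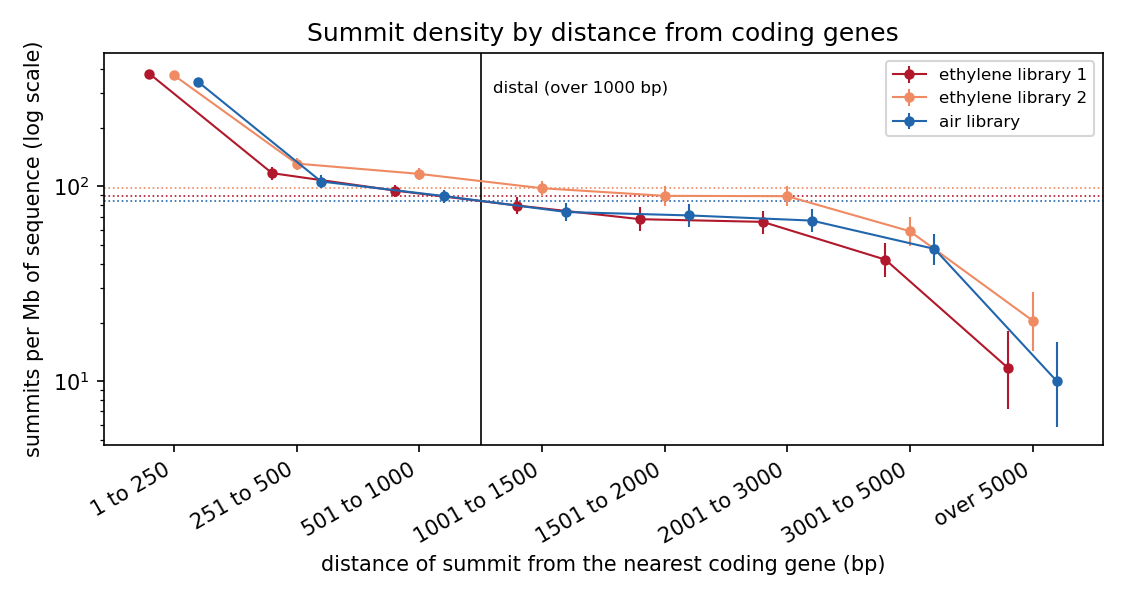
Summits per Mb of sequence (log scale) against distance of the summit from the nearest coding gene in bp, for ethylene library 1, ethylene library 2 and air, with exact Poisson 95% intervals as bars and the density over all kept sequence as dotted lines. Right of the vertical line, in distal sequence, density declined from 79.8, 97.9 and 73.9 per Mb up to 1500 bp to 11.7, 20.5 and 9.98 per Mb beyond 5000 bp.

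Distal peaks were about as strong as peaks near genes. Fold enrichment is the authors' ratio of a peak's tags to the local background in the input, and serves here for ranks within each list. The median fold of distal peaks was 4.03 in ethylene library 1, 3.49 in ethylene library 2 and 3.17 in air, against 3.99, 3.38 and 3.09 for other peaks. The distal median was higher in 3 of 3 libraries, by 0.0767 on average. An exact two-sided sign-flip permutation test over the libraries gave p = 0.25, the smallest that 3 libraries allow. Distal peaks were also narrower in each library, with median widths of 469, 460 and 628 bp against 493, 492 and 682 bp for other peaks (exact permutation p = 0.25). They held fewer tags, with medians of 74, 101 and 140 against 76, 108 and 150 (exact permutation p = 0.25). Summit heights did not differ in the median, at 20, 24 and 32 tags for both kinds of peak.

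Among the peaks of highest fold, distal ones took a larger share. When each list was divided into 4 equal parts by fold, the distal share of the lowest part was 8.63% in ethylene library 1, 10.0% in ethylene library 2 and 8.83% in air. In the highest part it was 11.1% (Wilson 95% interval 9.90 to 12.5%), 15.1% (13.7 to 16.6%) and 11.9% (10.6 to 13.4%). The interval of the highest part lay above that of the lowest part in all 3 libraries. The shares of the parts between did not climb evenly, with 10.7 and 9.94% in ethylene library 1.

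Most distal peaks were found again in another library, where recurrence means sharing at least 1 bp with a peak of any other library. The share was 84.2% in ethylene library 1, 73.0% in ethylene library 2 and 84.4% in air, against 83.3, 80.1 and 81.9% for other peaks. Over all peaks in the kept sequence the background was 83.4% in ethylene library 1, 79.2% in ethylene library 2 and 82.1% in air. The difference between distal and other peaks was 0.917 percentage points in ethylene library 1 (Newcombe 95% interval -1.74 to 3.31), -7.13 in ethylene library 2 (-9.87 to -4.53) and 2.49 in air (-0.173 to 4.89). The libraries did not point one way, and the exact sign-flip permutation test over them gave p = 1.0. The shortfall of ethylene library 2 was larger against ethylene library 1, where 57.0% of its distal peaks and 67.1% of its other peaks recurred, than against air, where 60.1% and 64.1% did.

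Merging peaks that shared at least 1 bp gave 1566 regions with a distal summit, among 13340 regions in the kept sequence. All 3 libraries had a peak in 555 of them (35.4%, Wilson 95% interval 33.1 to 37.8%), against a background of 35.5% over all regions. Both ethylene libraries without air held 158 (10.1%, background 11.3%), and air alone held 140 (8.94%, background 11.2%). Air with ethylene library 2 held 176 (11.2%, background 8.73%), more than the 77 of air with ethylene library 1 (4.92%, background 7.10%). Ethylene library 2 alone held 318 (20.3%, background 15.1%) and ethylene library 1 alone 142 (9.07%, background 11.1%). A region counted as distal when at least 1 of its summits was, so regions with more peaks had more chances to count, and 121 also held summits nearer to genes. Of those 121, 87 had a peak in all libraries. With regions in which every summit was distal, an alternative chosen after seeing the data, 468 of 1445 had a peak in all libraries (32.4%, upper bound of the Wilson 95% interval 34.8%), and the share of ethylene library 2 alone was 22.0%. The all-library share was thus level with the background under one definition. Under the other it was lower, but the background of 35.5% kept the regions with both kinds of summit, so those sets are not alike. The classes that hold ethylene library 2 without ethylene library 1 were therefore the ones above background. Distal regions of ethylene library 2 alone outnumbered those of both ethylene libraries without air. Over all regions in the kept sequence they did so too, at 2013 against 1504, so this order was not particular to distal regions.

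**Figure D2:**
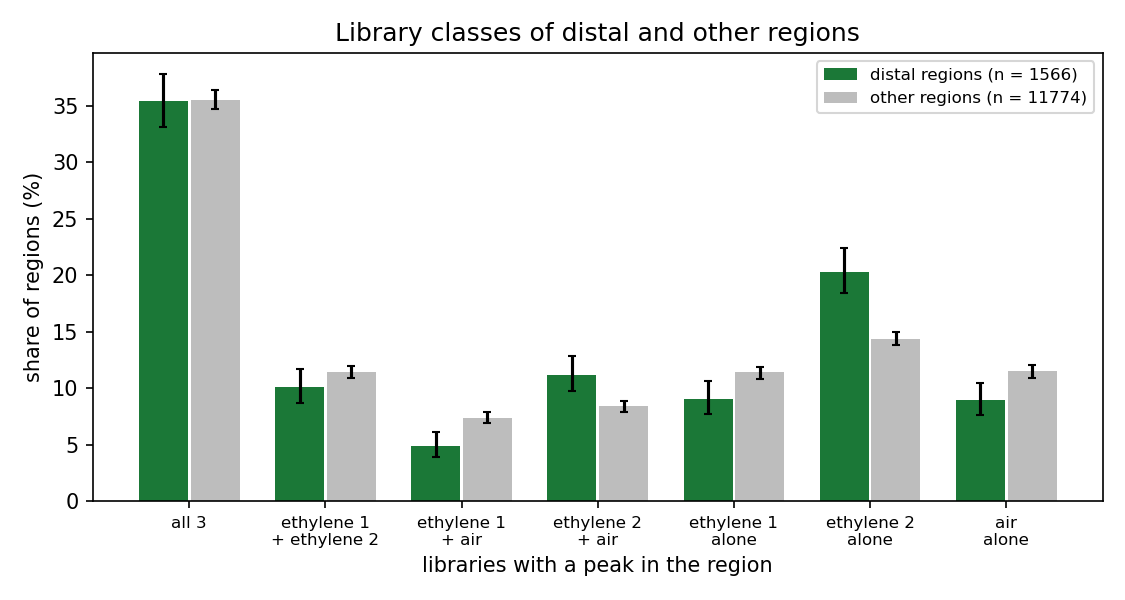
Share of regions in percent by the libraries with a peak in the region, for 1566 distal regions (green) and 11774 other regions (grey), with Wilson 95% intervals as bars. Both kinds had about the same share in all 3 libraries, 35.4% and 35.5%, and distal regions had the larger share in ethylene library 2 alone, 20.3% against 14.4%.

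Distal regions of all 3 libraries were stronger and placed alike in each list. Their distal peaks had median scores of 100.4 in ethylene library 1, 115 in ethylene library 2 and 94.4 in air, where the score is 10 times the negative log10 of the authors' p-value. Distal peaks found in a single library had 61.7, 68.6 and 62.6. In 447 regions with 1 distal peak per library, the summits of the ethylene libraries lay a median of 52 bp apart. Those of air lay 46 bp from ethylene library 1 and 51 bp from ethylene library 2. For other regions the same gaps were 59, 54 and 56 bp. Peaks of this class had to pass the p cutoff in each list and to overlap. Their strength and the closeness of their summits are thus partly set by how the class was made.

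The distal regions of smallest summed fold rank stood beside genes of varied function. The leading one lay on chromosome 1 from 7782124 to 7783003, between AT1G22060 and AT1G22065, with folds of 8.36 in ethylene library 1, 6.50 in ethylene library 2 and 6.38 in air. Its summit was 1025 bp from AT1G22060 in air, close to the distance limit. Beside LBD38, a transcription factor gene of nitrogen responses, the region on chromosome 3 from 18518253 to 18518678 had folds of 8.07 in ethylene library 1, 7.15 in ethylene library 2 and 5.59 in air. A region on chromosome 4 from 9443948 to 9444623 had 8.26, 7.0 and 5.57, and lay between AT4G16770 and HB-2, a homeodomain-leucine zipper gene of shade growth. Its summits fell 4866 to 4875 bp from HB-2, within 9 bp of each other.

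HAT3, a relative of HB-2, flanked a region on chromosome 3 from 22327730 to 22329172 with folds of 10.03, 6.40 and 5.09. There the air summit alone was distal, at 1009 bp from SHOT1, while the ethylene summits lay at 743 and 749 bp, so this region stood at the limit. A region on chromosome 3 from 6719792 to 6720318 had folds of 7.55, 6.12 and 5.39. Its air summit lay 2782 bp from AT3G19390 and 3865 bp from PUB25, a ubiquitin ligase gene. The region beside GAE1, which makes a pectin precursor, on chromosome 4 from 14884484 to 14884968, had 7.21, 6.28 and 5.45. In a gap of 7873 bp, the region on chromosome 5 from 18752767 to 18753273 had 7.74, 5.52 and 5.88. Its air summit lay 2234 bp from LARP6a and 5640 bp from KAT1, a potassium channel gene. Between CRF10 and the xylosidase gene XYL1, a region on chromosome 1 from 25730364 to 25731104 had 6.33, 7.30 and 5.46. Folds of air were lower than those of ethylene library 1 in all 8 regions. The whole air list also had the lower median fold, so these folds are not on a common scale.

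Regions with a peak in both ethylene libraries and none in air were led by one on chromosome 5 from 17771095 to 17771482, with folds of 7.97 and 7.10. It lay 1582 bp from NUC, a zinc finger gene of root patterning. The regions beside PUP19, RTFL18 and ARF10 followed, with folds of 7.12 and 5.88, 6.19 and 6.98, and 6.12 and 5.79 in ethylene libraries 1 and 2. ARF10 encodes an auxin response factor, and its region on chromosome 2 from 12117780 to 12118207 had the summit at 1054 bp in ethylene library 2. A region between AT4G02480 and AT4G02482 had 6.33 and 5.37, and another in the HB-2 gap had 5.33 and 5.91.

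Regions of air alone ranked below the leading all-library regions in the air list, where those ranked 23 to 163. The strongest, on chromosome 3 from 20913933 to 20914330, lay 2043 bp from AT3G56410 and 3506 bp from the defence regulator gene WRKY70. It had a fold of 4.33, rank 514 of the air list. The next lay 1162 bp from the nitrate transporter gene NRT2:1 and had 4.21. The others, with AT5G65650, AT1G75590, AT3G58090 and ABCB2 as nearest coding genes, had 4.21, 4.11, 3.94 and 3.89. The AT3G58090 region had the trichome gene GIS on its other side, at 2577 bp.

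**Figure D3:**
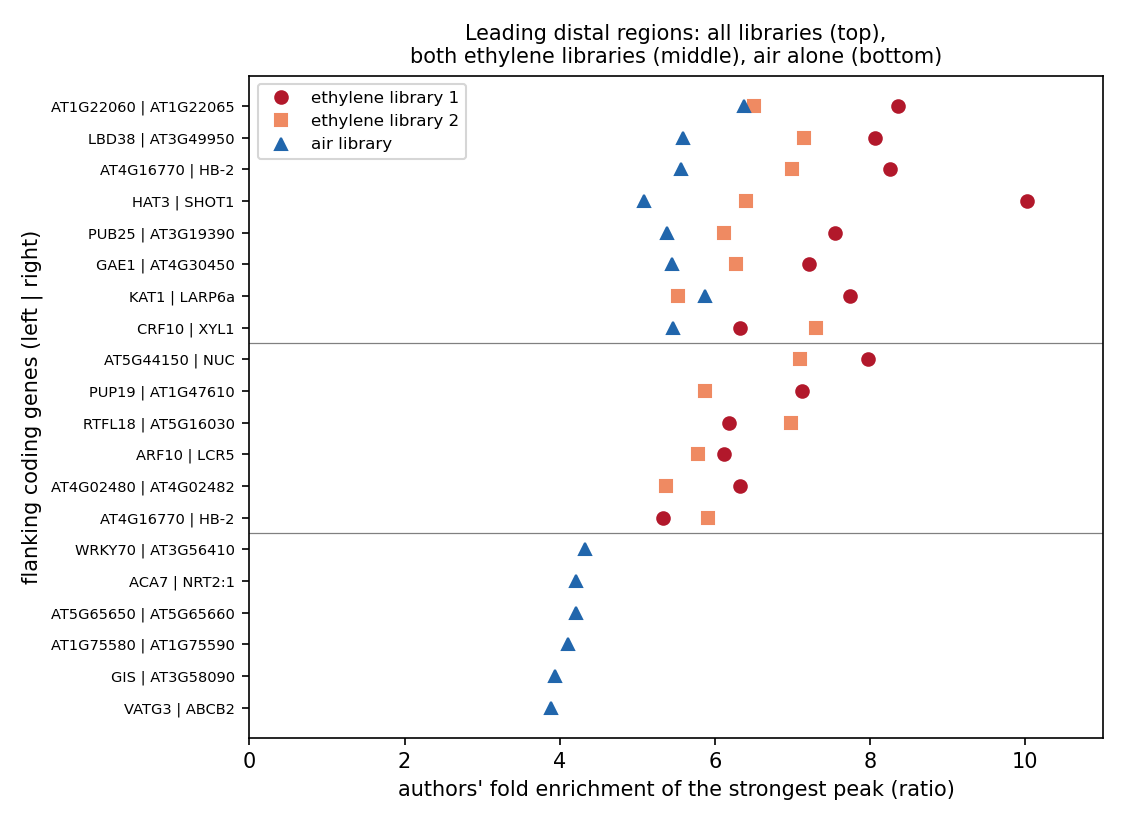
The authors' fold enrichment of the strongest peak in each of 20 distal regions, named by their flanking coding genes, for ethylene library 1 (circles), ethylene library 2 (squares) and air (triangles). The regions of all libraries (top) reach 10.03 between HAT3 and SHOT1, in a peak of ethylene library 1 whose summit, at 743 bp, was not itself distal. The regions of both ethylene libraries (middle) reach 7.97 beside NUC. Those of air alone (bottom) lie between 3.89 and 4.33.

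The all-library regions with summits farthest from coding genes had folds on both sides of the distal medians of 4.03, 3.49 and 3.17. All summits beyond 5000 bp had median folds of 4.26 in ethylene library 1, 3.76 in ethylene library 2 and 3.12 in air. The farthest distal region in all libraries lay on chromosome 3 from 11510061 to 11510747, up to 17443 bp from PMAT2, in a gap of 46565 bp close to the excluded centromere zone. Its folds were 3.92 in ethylene library 1, 3.98 in ethylene library 2 and 3.17 in air, and the long noncoding RNA record AT3G05945 lay within 200 bp. The next had summits up to 7137 bp from AT5G19100, with folds of 4.07, 2.95 and 3.17. The next, up to 6603 bp from a coding gene between AT1G29640 and AT1G29660, had 3.45, 3.53 and 2.94.

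Several gaps held more than 1 distal region. Of 5745 gaps between coding genes that contain distal sequence, 1183 held a distal region and 493 one with a peak in all libraries. A single region stood in 913 gaps, 195 held 2, 51 held 3, and 24 held 4 to 7. The share of gaps with a distal region was 7.07% at over 2000 and up to 3000 bp of length, 23.0% up to 5000 bp, 36.6% up to 10000 bp and 34.4% above that. Longer gaps hold more distal sequence, so part of this order follows from the rule.

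The gap of 11907 bp between AT4G16770 and HB-2 held 6 distal regions, of which 4 had a peak in all libraries, and was chosen for display after its values were seen. In ethylene library 2 their summits lay 8296, 6993, 5666, 4866, 3040 and 1795 bp from HB-2. The farthest, on chromosome 4 from 9440653 to 9440971, had folds of 5.13 in ethylene library 1, 6.29 in ethylene library 2 and 4.05 in air. The next had 3.95 in ethylene library 2 and 4.58 in air, and the one after it 5.33 and 5.91 in the ethylene libraries with no air peak. Past the leading region came one with 6.09, 5.66 and 4.20, and the nearest to HB-2 with 4.42, 4.62 and 2.74. Of the 7 distal regions between NCED3, which makes a precursor of abscisic acid, and CID9, 1 had a peak in all libraries. The 6 between AT3G60520 and the transcription factor gene GATA4 included 4 such regions, of which the strongest had 6.74, 4.46 and 2.99.

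**Figure D4:**
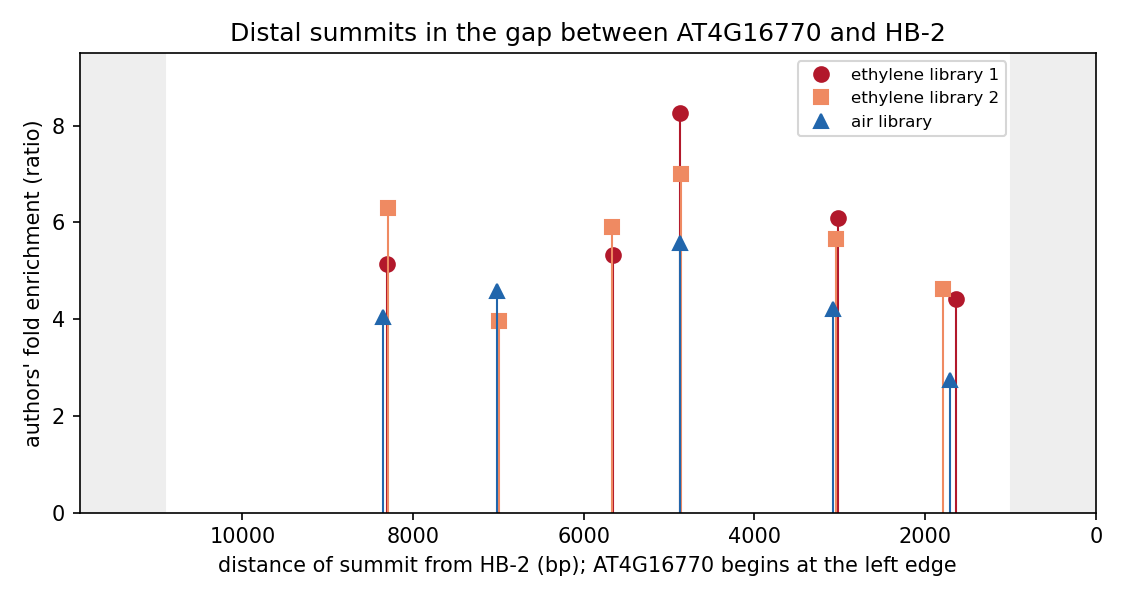
The authors' fold enrichment of each distal summit in the gap between AT4G16770 and HB-2 against its distance from HB-2 in bp, for ethylene library 1, ethylene library 2 and air, with the 1000 bp next to either gene shaded. The summits gather at 6 places, and the highest folds, 8.26, 7.0 and 5.57, stand between 4866 and 4875 bp.

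Noncoding records were then sought within 200 bp of distal summits, beside the share of distal sequence that such records cover with 200 bp on either side. Long noncoding RNA genes were the kind met most often. A long noncoding RNA record lay within 200 bp of 80 distal summits in ethylene library 1 (8.90%), 109 in ethylene library 2 (9.26%) and 94 in air (10.5%). Among other summits the shares were 4.74, 4.41 and 4.52%, and such records with 200 bp on either side covered 3.92% of distal sequence. The strongest of these regions lay on chromosome 5 from 25436556 to 25437406, at AT5G09170 between FP3 and RMI1, with folds of 6.16, 6.31 and 5.83. The next, at AT5G01475 between BIM1, a brassinosteroid signalling gene, and the nearer AT5G08139, had 6.17, 5.65 and 5.37.

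Pseudogene records, which in the gene table include genes of transposable elements, covered 21.5% of distal sequence with 200 bp on either side. They met 2.67% of distal summits in ethylene library 1, 2.21% in ethylene library 2 and 2.01% in air, below that share. Among other summits they met 0.725, 0.563 and 0.628%, so against other summits the distal shares were the higher ones. How uniquely tags map in such repeats differs from other sequence, and its part in this low share was not tested. A region at the pseudogene record AT2G18323, on chromosome 2 from 7960144 to 7960769, had folds of 8.82, 7.68 and 4.36. Its pileups of 95, 99 and 106 tags were 3 or more times the list medians of 20, 24 and 32. A region at AT1G21945 had pileups of 87, 94 and 94 tags.

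Records of tRNA genes lay within 200 bp of 1.22, 0.850 and 1.12% of distal summits, against 3.58, 3.52 and 3.80% of other summits. They covered 0.358% of distal sequence, so the distal shares were below those of other summits and above the sequence share. The strongest region, at AT1G61910 on chromosome 1 from 22885900 to 22887676, had folds of 6.42, 5.49 and 4.99, and the next, at AT2G42420 between ZFP11 and LBD16, had 5.31, 3.61 and 4.11. Other noncoding RNA records met 2.78, 2.72 and 3.01% of distal summits and 1.23, 1.13 and 1.15% of other summits, and covered 2.34% of distal sequence. At AT1G09965, between the nearer AT1G78070 and the transcription factor gene RAP2.4, the region on chromosome 1 from 29360792 to 29361367 had folds of 7.34, 5.72 and 4.58. That at AT4G36648 had 5.27, 4.21 and 3.85. MicroRNA records met 1, 2 and 3 distal summits, or 0.111, 0.170 and 0.335%, against 0.0750, 0.0235 and 0.0669% of other summits and 0.386% of distal sequence. Among them were MIR161, with folds of 4.04 in ethylene library 1, 3.05 in ethylene library 2 and 3.24 in air, and MIR156f, with 3.47 in ethylene library 2 and 2.93 in air. Records of snoRNA genes met 1, 0 and 2 distal summits, or 0.111, 0 and 0.223%. They met 0.237, 0.188 and 0.107% of other summits and covered 0.0779% of distal sequence. The folds were 4.43 in ethylene library 1 and 3.44 in air at AT2G08760, and 3.39 in air at AT4G06240. No distal summit lay within 200 bp of an snRNA record, 0 of 899, 1177 and 896, which allows shares of up to 0.334, 0.255 and 0.335% (3 counts of each total). Such records met 0.287, 0.199 and 0.281% of other summits and covered 0.0375% of distal sequence. Those shares lie below the allowed ones, so the counts of 0 do not show that distal summits lack snRNA records. Any record other than a coding gene, pseudogenes included, lay within 200 bp of 15.2, 14.5 and 16.2% of distal summits, against 27.9% of distal sequence.

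The coding genes on either side of each distal summit were then taken as its neighbours, without implying that either is a target. A gene named below need not be the nearer neighbour of its region. DWF4, GA2OX4, PIN3, SEP4, CUC3, LBD16, EXPA4 and SPCH, among others, stood farther from it than the gene at the other end. A coding gene can be a neighbour only if it borders a gap of more than 2000 bp, and 9681 of 27444 coding genes did. Of these, 2252 (23.3%) stood beside a distal summit of any library and 954 (9.85%) beside a distal region of all libraries. Lists of hormone, growth and control genes are given against these shares as counts, with no test. The lists were chosen with earlier results known, and many of their genes border long gaps. Over all coding genes with a bordering gap above 5000 bp, 39.5% had a distal summit beside them and 18.2% a region of all libraries.

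Genes of gibberellin and brassinosteroid, hormones that drive stem elongation, had the highest share. Of 26 bordering genes, 20 stood beside a distal summit (76.9%) and 16 beside a region of all libraries (61.5%). By library the counts were 17 in ethylene library 1 (background 15.1%), 19 in ethylene library 2 (18.0%) and 16 in air (14.7%). Among the 16 genes of the list with a gap above 5000 bp, 15 had a distal summit. With scores of at least 100 there were 14 of 26, against 11.5% of all bordering genes.

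Enzyme genes of both hormones were among the neighbours. DWF4, which catalyses a rate-limiting step of brassinosteroid synthesis, had a region 4634 bp away with folds of 5.30 in ethylene library 1, 5.43 in ethylene library 2 and 5.59 in air. GA3OX1, which makes active gibberellin, had one 3324 bp away with 5.10, 4.17 and 3.34. GA20OX3, which acts a step earlier, had one 1708 bp away with 3.91, 6.0 and 3.97. GA2OX4, which inactivates gibberellin, had one at 1665 bp with 6.0, 4.32 and 3.72. Folds of different libraries are not on a common scale, so their order within a region is not read as a difference between treatments.

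The DELLA repressors RGA1, GAI and RGL1 hold back growth until gibberellin removes them, and all had a distal region of all libraries beside them. RGA1 had folds of 5.09, 4.53 and 4.69 at 1460 bp, RGL1 had 4.49, 3.01 and 3.36 at 4184 bp, and GAI had 3.16, 3.99 and 2.30. The GAI region stood at the limit, since its air summit, at 1026 bp, was distal and its ethylene summits, at 958 and 885 bp, were not. The receptor genes GID1A and GID1B, the brassinosteroid receptor gene BRI1 and the kinase gene BIN2 also had one. The GID1B region too stood at the limit, with its strongest summits at 957 bp in ethylene library 1, 1003 bp in ethylene library 2 and 928 bp in air. In BRI1 the folds were 4.63, 3.41 and 2.83. For 10 of the 20 genes, RGA1, GA3OX1, GA20OX3 and GA2OX4 among them, no library had a summit inside the gene or within 1000 bp of it. Over all genes beside a distal summit, that share was 37.8% (851 of 2252). It was 50.4% over all genes bordering distal sequence (4880 of 9681) and 46.0% over all coding genes in the kept sequence.

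Auxin genes followed, with 25 of 36 bordering genes beside a distal summit (69.4%) and 10 beside a region of all libraries (27.8%). Counts by library were 14, 18 and 18, and a score of at least 100 left 14. ARF5, an auxin response factor gene of embryo and vein patterning, had a region on chromosome 1 from 6882983 to 6883613, 3300 bp away, with folds of 7.01, 5.86 and 4.91. GH3.6, which conjugates auxin to amino acids, had one at 1057 bp with 5.90, 4.76 and 4.06. Neither gene had a summit within 1000 bp in any library. PIN3, an efflux carrier gene of the apical hook, shared its region with HB18, at 6.93, 4.89 and 5.30. The 25 genes rested on 23 regions, since IAA1 and IAA14, and IAA3 and IAA17, are neighbours.

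Homeobox genes named HB with a number stood beside a distal summit in 18 of 28 cases (64.3%), and beside a region of all libraries in 13 (46.4%). Counts by library were 14, 18 and 15, and a score of at least 100 left 12. Besides HB-2 and HB18, HB4, another shade growth gene, had folds of 8.06, 5.06 and 3.49 at 1902 bp. HB-12, a gene of water stress, had 5.43, 4.78 and 3.68 at 3174 bp. Of 49 bordering meristem and organ patterning genes, 29 were neighbours (59.2%), 14 of them of all-library regions, and a score of at least 100 left 15. The flower gene SEP4 had folds of 5.34, 5.35 and 4.00, and the boundary gene CUC3 had 5.19, 4.60 and 3.41. LBD16, of lateral root formation, had 5.31, 3.61 and 4.11, and TCP2, of leaf growth, had 5.53, 3.61 and 3.90.

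Genes of ethylene signalling, response and biosynthesis had shares of 62.5, 53.3 and 40.0%, also above the 23.3% of all bordering genes but from few genes. Scores of at least 100 left 4 of 8, 5 of 15 and 4 of 10. Divided by the longer gap that each gene borders, biosynthesis genes had 4 of 4 above 5000 bp and 0 of 6 with shorter gaps. The gap that held the region was not always that one, since the ACS7 and ACS5 regions lay in gaps of 4694 and 4852 bp. Response genes had 5 of 9 and 3 of 6, and all 8 signalling genes had shorter gaps. Over all bordering genes the shares were 39.5% with gaps above 5000 bp and 16.2% with shorter ones. Of 8 bordering ethylene signalling genes 5 were neighbours, 4 in each ethylene library and 2 in air. EBF1, whose F-box protein removes EIN3, had a region with folds of 3.41 in ethylene library 1, 3.66 in ethylene library 2 and 4.09 in air, whose summit was distal in ethylene library 1 alone, at 1105 bp against 992 and 993 bp. The receptor gene ERS2 had 3.65, 3.54 and 3.35, and EIN2, the central signal carrier, had 3.61, 3.95 and 2.65. EIL2, with 5.60 and 3.81, and EBF2, with 2.71 and 4.51, had a region in both ethylene libraries and none in air. The EBF2 summits lay at 809 and 1057 bp, so that of ethylene library 2 alone was distal, and EBF2 had a summit inside it or within 1000 bp in all 3 libraries, air included.

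Ethylene response genes were neighbours in 8 of 15 cases, 5, 7 and 7 by library, and ethylene biosynthesis genes in 4 of 10, with 3, 3 and 4. HLS1, which is needed for the apical hook, had a region on chromosome 4 from 17652003 to 17652666, with folds of 3.26, 3.48 and 3.57. It lay 6367 bp from HLS1 in a gap of 9909 bp, and so nearer to the gene at the other end. HLS1 had no summit within 1000 bp. EDF1 and EDF2, repressor genes induced by ethylene, had 4.36, 4.22 and 2.85, and 3.14, 4.20 and 3.24. The ACC synthase genes ACS7 and ACS9 had 3.93, 3.20 and 3.77, and 4.13, 3.51 and 3.17, also with no summit within 1000 bp. In these lists the counts of air and of the ethylene libraries differed by at most 2 genes.

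**Figure D5:**
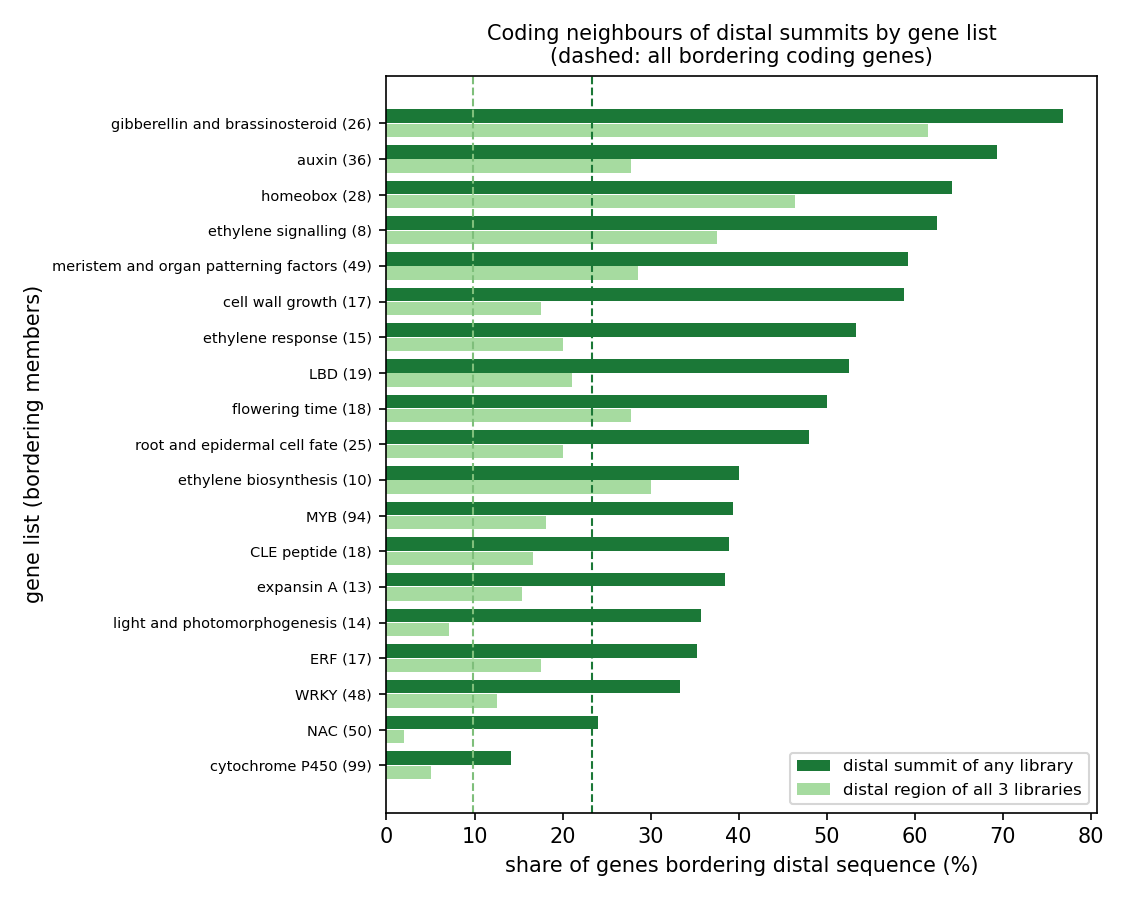
Share in percent of the genes bordering distal sequence that stood beside a distal summit of any library (dark) or beside a distal region of all 3 libraries (light), for the gene lists and families given here with 8 or more bordering genes (number in brackets). Dashed lines mark all bordering coding genes, 23.3% and 9.85%, and the gibberellin and brassinosteroid list lies farthest above them at 76.9% and 61.5%.

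Genes beside distal summits had summits of their own more often than other genes bordering distal sequence. A summit between 1000 bp outside and 200 bp inside either gene end was present in all 3 libraries for 24.3% of them (548 of 2252), against a background of 22.0% over all coding genes in the kept sequence. Among bordering genes with no distal summit beside them the share was 16.9% (1256 of 7429). In at least 1 library the shares were 58.3% beside a distal summit, 43.1% of bordering genes without one and 51.7% over all coding genes. No test was made of these shares, and neighbouring genes share gaps. A region with summits on both sides of the 1000 bp limit could give a gene both a distal summit and one of its own. Of the 1566 distal regions, 121 also held summits nearer to genes, so part of the difference can follow from the definitions. The size of that part was not tested.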

How the data were processed

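Immunoprecipitated DNA of 3 libraries was sequenced, with 2 inputs. The submitters' processing notes name BWA and the TAIR10 build. Peak calling used MACS 1.4.2 on each library with its treatment's input as control, per the file headers, at a p cutoff of 1e-05 and with 1 tag kept per position. Both ethylene lists used the same input. The deposited tags per peak are counts, not normalized. The deposited score is 10 times the negative log10 of the p-value, the fold enrichment is a ratio to the local background, and the FDR is in percent, per the file headers. The deposited summit lists give height as a signal, the tag pileup. The headers carry a run name of another protein, and the air run name a replicate label 2. The sample labels' name, TREE1, is used.

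All else was computed with scipy 1.17.1, pandas 2.3.3, matplotlib 3.10.9 and numpy 2.4.6 under Python 3.11.15. Gene names and distances came from a TAIR10.1 gene table with 37899 nuclear records, 27444 of them coding, without strand. Shifting all summits by 100 bp steps, to 2000 bp either way, left the unshifted share inside coding genes the lowest for 15 of 15 combinations of chromosome and library. None of the table's coordinates is printed. Libraries, not peaks, were the units of the exact sign-flip permutation tests. Steps were tested on simulated data with summits planted on both sides of the 1000 bp limit. Of these, 504 of 504 were called correctly as distal or not, and their class and neighbours were recovered. Motif counts had been planned and were not made, since genome sequence was not used here.

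Named regions were the 8 all-library regions of smallest summed fold rank, 6 of both ethylene libraries, 6 of air alone, the 3 farthest, and 2 per kind of noncoding record. Up to 4 neighbours were named per list, those of all-library regions first. Further neighbours and the gaps with most regions were chosen after their values were seen. The members, the 12 lists and the 13 families were chosen with earlier results of these data known. The result of 1 family and of 1 auxin gene is not reported here. Of 341 list entries, 329 matched 1 record. Alternatives changed the distance, the genes counted, the excluded sequence, the score, list length, the overlap and the libraries used.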

Additional observations from a re-analysis of the deposited data

How the results depend on the processing

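The distance limit set the size of the distal class. With more than 500 bp the distal shares were 18.3% in ethylene library 1, 21.3% in ethylene library 2 and 18.9% in air, and 1036 regions had a peak in all libraries, 295 in both ethylene libraries and 253 in air alone. With more than 2000 bp the shares were 3.80, 4.86 and 4.20%, and the regions 218, 55 and 51. Counting every gene record gave shares of 7.33, 8.95 and 7.68%. A score of at least 100 moved the air share to 9.92%, the regions to 146, 84 and 66, and the coding neighbours to 1109 for any library and 275 for all. It left 14 auxin and 15 meristem genes, against 25 and 29 without it. Taking the nearest coding gene alone gave 1367 and 555 neighbours. For long noncoding RNA records, inside the record gave 6.67, 6.12 and 7.81%, and within 1000 bp 15.7, 16.0 and 17.3%.

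The mean recurrence difference of -1.24 percentage points turned to 0.186 beyond 2000 bp. Leaving out an ethylene library gave -0.968 to 0.839, and 0.839 was the value without ethylene library 1. Without ethylene library 2 the difference in air turned to -2.99. The shortfall of ethylene library 2 kept its sign under each alternative run, as did the higher median fold of distal peaks, 0.060 to 0.095 with an ethylene library left out and 0.043 to 0.125 otherwise. Leaving out an ethylene library gave 613 to 717 regions of all remaining libraries and 216 to 309 of air alone. Regions with distal summits only, chosen after seeing the data, gave 468 of all libraries, 142 of both ethylene libraries and 140 of air alone. The causes were not tested. With 3 libraries no exact permutation test can pass 0.05, as the smallest p is 0.25. Leaving out air was not run. No paired analysis was possible because air has a single library with no replicate number in the labels.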

Other observations

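Among gene families, cytochrome P450 genes stood beside distal summits least often of the larger families given here, with 14 of 99 bordering genes (14.1%), against 23.3% of all bordering coding genes. NAC genes had 12 of 50 (24.0%), of which 1, NAC083, stood beside a region of all libraries. That region had folds of 5.46 in ethylene library 1, 4.06 in ethylene library 2 and 3.81 in air. It lay 11847 bp from NAC083 in a gap of 12901 bp, and so nearer to SAG29 at the other end. MYB genes had 37 of 94 (39.4%) and 17 beside regions of all libraries, led by MYB73 with 6.03, 5.85 and 4.69. WRKY genes had 16 of 48 (33.3%), with WRKY22 at 4.39, 4.88 and 4.13. LBD genes had 10 of 19 (52.6%), among them LBD37 at 5.16, 5.91 and 3.93. Cell wall growth genes had 10 of 17, and EXPA4, an expansin gene, had a region 7925 bp away at 5.98, 5.16 and 5.16. Root and epidermal cell fate genes had 12 of 25, with the stomatal regulator SPCH at 5.04, 3.76 and 3.96. With gaps above 5000 bp they had 5 of 13 (38.5%), near the 39.5% of all such genes, and with shorter gaps 7 of 12 (58.3%), against 16.2%. Flowering time genes had 9 of 18, light genes 5 of 14, clock genes 2 of 6 and housekeeping genes 3 of 5. Small families gave 6 of 17 for ERF genes, 5 of 13 for expansin A, 7 of 18 for CLE peptide genes, 2 of 6 for SAUR genes, 1 of 4 for cytosolic ribosomal protein genes and 0 of 4 for genes named BZIP. With scores of at least 100, root and epidermal cell fate genes numbered 3 of 25, close to the 11.5% of all bordering genes, and cell wall growth genes 3 of 17 (17.6%). In ethylene library 1 the cell wall count was 3 of 17 at any score. At that score NAC genes had 5 of 50, MYB genes 19 of 94, WRKY genes 10 of 48 and LBD genes 5 of 19.

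Pileups above 3 times the list median stood at 6 of 899 distal summits in ethylene library 1, 2 of 1177 in ethylene library 2 and 1 of 896 in air, and at 20 of 8000, 3 of 8523 and 8 of 7479 other summits. Of the 6 in ethylene library 1, 4 had no peak in another library, one of them 1796 bp from GH3.1 with a pileup of 87 tags in a peak of 452 bp.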
